A study of Mus musculus with 17 samples.

Results

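Transcript levels of 10 transcription factors that set the state of T cells (Satb1, Lef1, Bach2, Klf2, Myb, Id2, Id3, Foxo1, Foxp1 and Gfi1) were followed through 8 groups of cultured mouse CD4 T cells. The members were chosen by name, with earlier results of these data known. Their counts and medians beside those of all genes describe these members and are not a test of them as a set. Every probe set that the array's gene table assigns to one of them was taken. This gave 31 probe sets for 10 genes, of 45101 probe sets and 18194 named genes on the array. Satb1 has 5 probe sets, Lef1 has 2, Bach2, Myb and Id2 have 3 each, Foxo1 has 4, Foxp1 has 8, and Klf2, Id3 and Gfi1 have 1 each. All 10 genes passed the filter on low values in both experiments.

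The 17 Affymetrix arrays come from a pair of culture experiments with cells of male mice aged 6 to 10 weeks, 3 mice pooled per array. In the co-culture experiment (11 arrays), splenic CD4+Foxp3- T cells of C57BL/6-Foxp3/GFP reporter mice were kept for 5 days at 10 T cells per dendritic cell (DC). All co-cultures held anti-CD3 (1 µg/ml), transforming growth factor beta (TGFbeta, 0.6 ng/ml) and IL-2 (5 ng/ml, on days 2 and 4). The DC came from spleen (Sp-DC) or from the lamina propria of the gut (LP-DC), and a further culture with Sp-DC also held RA (retinoic acid, made from vitamin A) at 100 nM. The cells were then sorted by GFP, which gave Foxp3- and Foxp3+ cells of the Sp-DC culture (2 arrays each), of the LP-DC culture (2 arrays each) and of the Sp-DC plus RA culture (1 Foxp3- and 2 Foxp3+ arrays). In the memory experiment (6 arrays), CD44hiCD62L-CD25-CD4+ cells of C57BL/6 spleen and lymph nodes, called memory cells in the labels, were cultured with naive CD4+ cells for 48 hours. The ratio was 2 memory cells per naive cell. TGFbeta (10 ng/ml), beads carrying anti-CD3 and anti-CD28, and IL-2 at 20 U/ml were present in both groups, and RA at 100 nM in only the second. The memory cells were recovered by their congenic CD45 marker, with 3 arrays without and 3 with RA. RNA went through repeated amplification before labelling. The pools of mice are the replicates as far as the labels tell, so p-values rest on the spread between arrays, in the way described below for each fit. The Foxp3+ and Foxp3- arrays are sorts of a culture, and the labels do not say which of them share a pool.

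These 10 factors divide the work of holding a T cell at rest and of letting it differentiate. Foxo1, Klf2, Lef1 and Foxp1 are known from resting, recirculating T cells, where Foxo1 drives Klf2 and the IL-7 receptor, Klf2 drives the receptor for leaving lymph nodes, and Lef1 works with beta-catenin and Tle corepressors. Bach2 is a repressor that restrains effector programmes and favours regulatory T cells, Satb1 organises chromatin and is kept low by Foxp3 in regulatory T cells, and Myb is known from progenitors and from effector regulatory T cells. Id2 and Id3 bind E proteins and keep them off DNA, and Gfi1 is a zinc finger repressor that recruits the histone demethylase Kdm1a. RA acts through nuclear receptors that bind repeats of a short half-site.

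The stretches before the transcription start are shown for the 4 members whose values the results turn on most. They are 250 bases each, read in the direction of transcription from RefSeq windows of build GRCm38.p6, in which all 10 members have at least 1 window. Capitals mark letters that a search on both strands matched. The motifs searched were the retinoic acid receptor half-site AGGTCA, its direct repeat with 5 bases between the copies, the E-box CAGCTG bound by E proteins, the Gfi1 core AAATCA, the forkhead motif GTAAACA and the Krueppel-like factor motif CCACCC.
Gfi1, chr5:107725806-107726055, minus strand: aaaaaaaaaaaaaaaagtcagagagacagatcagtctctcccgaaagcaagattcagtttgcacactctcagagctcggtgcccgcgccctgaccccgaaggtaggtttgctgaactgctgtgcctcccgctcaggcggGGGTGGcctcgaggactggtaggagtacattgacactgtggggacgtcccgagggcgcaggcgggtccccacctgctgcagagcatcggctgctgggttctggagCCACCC
Satb1, chr17:51826589-51826838, minus strand: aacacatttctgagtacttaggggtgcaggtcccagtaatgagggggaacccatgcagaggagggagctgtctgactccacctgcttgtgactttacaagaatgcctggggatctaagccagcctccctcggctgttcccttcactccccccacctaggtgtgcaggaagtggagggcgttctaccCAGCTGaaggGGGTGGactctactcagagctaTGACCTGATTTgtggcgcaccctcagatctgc
Myb, chr10:21160985-21161234, minus strand: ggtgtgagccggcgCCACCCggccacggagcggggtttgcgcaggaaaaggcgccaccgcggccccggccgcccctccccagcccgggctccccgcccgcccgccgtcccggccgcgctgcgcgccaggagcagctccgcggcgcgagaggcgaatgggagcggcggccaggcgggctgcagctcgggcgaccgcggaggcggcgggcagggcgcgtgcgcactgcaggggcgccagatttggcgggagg
Id2, chr12:25096093-25096342, minus strand: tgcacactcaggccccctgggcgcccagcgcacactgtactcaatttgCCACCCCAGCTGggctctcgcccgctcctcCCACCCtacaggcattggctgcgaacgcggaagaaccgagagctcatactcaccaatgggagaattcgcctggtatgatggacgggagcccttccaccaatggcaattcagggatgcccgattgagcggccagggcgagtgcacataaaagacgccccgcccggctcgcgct
Of 5 start sites listed for Satb1, this is the one with the most different motifs. In it the half-site (as TGACCT) and the Gfi1 core (as TGATTT) lie next to each other and share 1 base, and an E-box and a Krueppel-like factor motif precede them. The search covered whole windows of 300 bases, which run on for 50 bases from the start site past the stretches shown. The half-site was found in 16.3% of all 32851 such windows and in 1 of 20 member windows, the repeat in 0.00913% and in 0 member windows. The Gfi1 core was found in 14% of all windows and 3 member windows, all of Satb1. Among these are overlapping windows that hold the same site, so windows do not count separate sites. The E-box was found in 16.3% of all windows and 3 member windows (Satb1, Id2 and Lef1), where on this palindrome both strands match together. The forkhead motif was found in 3.65% of all windows and, past the printed stretch, in the Myb window. The Krueppel-like factor motif was found in 31.5% of all windows and in 13 member windows. In Gfi1 and Myb it is the motif in capitals. These matches describe letters only.

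Values are given as log2 of the deposited linear values, on which the median of all probe sets lies between 5.88 and 5.98 on every array. Each gene is followed by its brightest probe set on average, cross-hybridizing sets passed over. Probe sets differ in how brightly they report a transcript, so levels are compared between groups and not between genes. Replicate arrays are numbered in the labels, and arrays with the same number deviated together, so a fit that blocks on the number (the paired fit) is given beside the planned fit without a block (the unpaired fit). Both are limma fits across all genes tested with Benjamini-Hochberg adjustment, and a gene is called where its adjusted p is under 0.05. The p-values of the paired fit rest on the spread left once the number is taken out. That spread combines a gene's own arrays (2 degrees of freedom in the memory fit, 4 in the co-culture fit) with all genes tested (7.23 and 5.56). Differences are log2 values ± standard error.

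The T cell identity of the samples was checked on marker lists. A marker was counted as above the array median in a group if it exceeded it on at least 1 array, and as under it otherwise. All 9 T cell markers on the array lay above the array median in all 8 groups. Of 6 B cell markers, 1 to 3 lay above it, with Blnk and Ebf1 under it in every group. Of 11 dendritic and myeloid markers, 5 or 6 lay above it, with Itgax, H2-Aa, Lyz2, Xcr1 and Fcer1g under it everywhere. Of 7 CD8 T and NK markers, 4 or 5 lay above it, with Cd8b1 and Ncr1 under it everywhere. Of 3 erythroid markers 1, Epor, lay above it. The array's Foxp3 probe set lay between 3.88 and 4.53 on all 11 co-culture arrays, under the array median in the Foxp3+ sorts as well, so it does not check the sort labels. In the memory experiment it lay between 7.08 and 9.14.

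**Figure D1:**
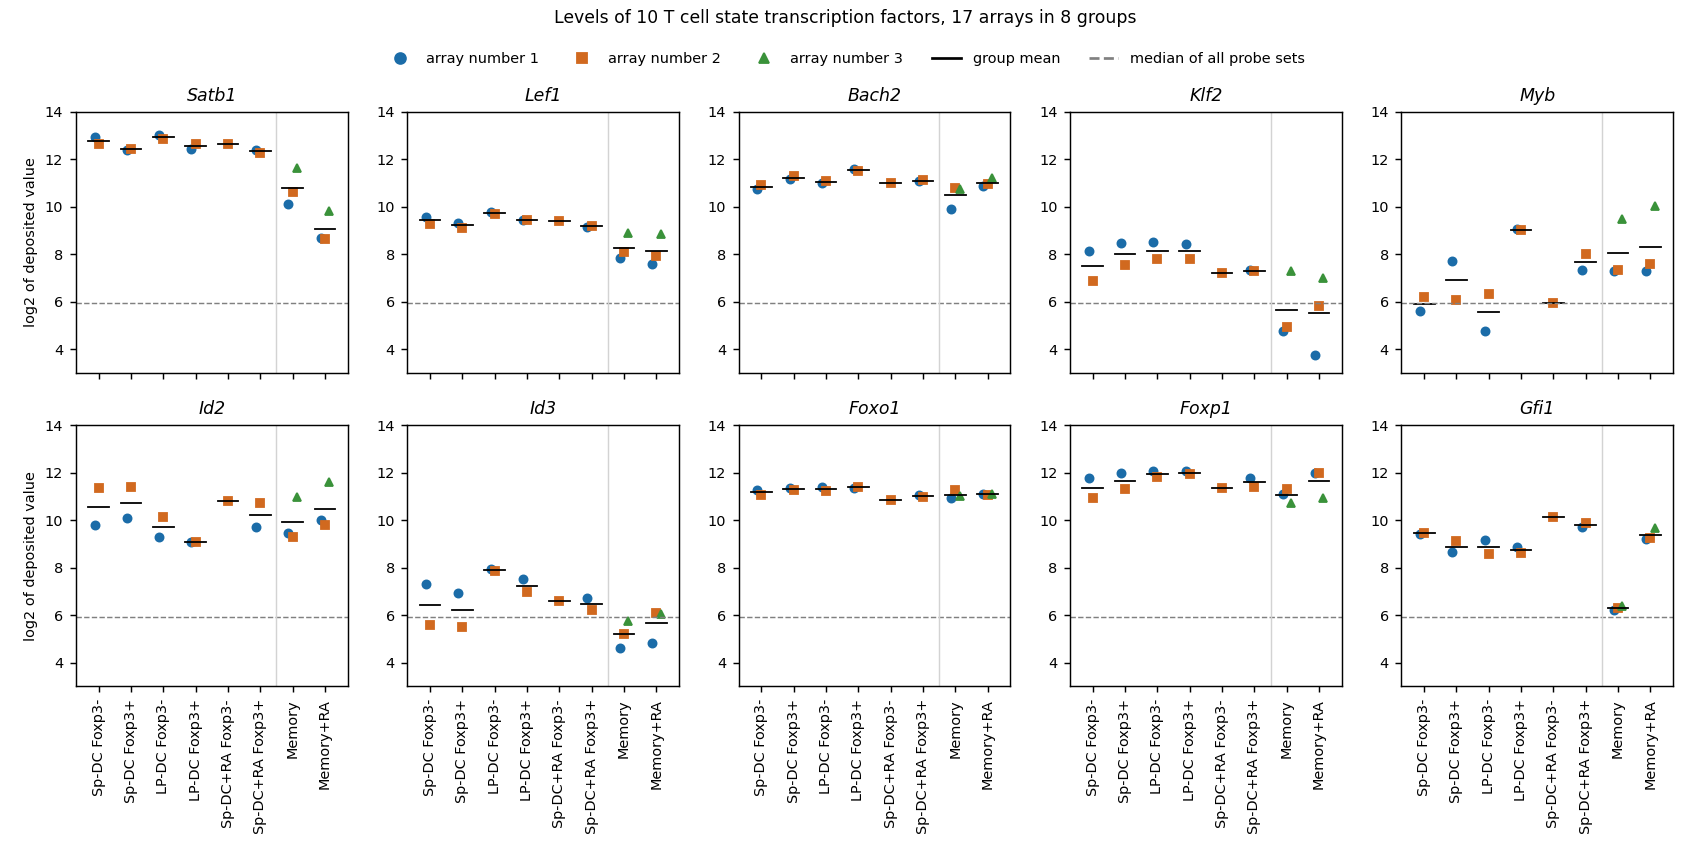
Level of each factor on every array (vertical axis, log2 of the deposited value) in the 8 groups (horizontal axis), with marker shape for the array number, black bars for group means and a dashed line for the median of all probe sets. Gfi1 is lowest in memory cells without RA (6.22 to 6.39), Satb1 in memory cells with RA (8.65 to 9.82), and Myb is highest and tightest among co-cultured cells in LP-DC Foxp3+ cells (9.02 and 9.04).

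The repressor Gfi1 was set apart by a single group. Without RA, memory cells gave 6.22, 6.31 and 6.39, on average 0.37 above the array median, and with RA 9.21, 9.23 and 9.66. The co-culture arrays ranged from 8.59 to 10.13, so the 3 arrays of memory cells without RA lay below all 14 others. In order of group means the levels were 6.31 (memory), 8.75 (LP-DC Foxp3+), 8.88 (LP-DC Foxp3-), 8.89 (Sp-DC Foxp3+), 9.37 (memory with RA), 9.44 (Sp-DC Foxp3-), 9.79 (Sp-DC plus RA, Foxp3+) and 10.13 (Sp-DC plus RA, Foxp3-, 1 array). Among these, the arrays of both LP-DC groups and of Sp-DC Foxp3+ cells overlap one another, and so do those of memory cells with RA and Sp-DC Foxp3- cells. The arrays with RA lay above those without in both sorts of the Sp-DC culture.

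Satb1, the chromatin organiser, was high in all co-cultured cells, from 12.27 to 13.01. Memory cells without RA gave 10.12, 10.60 and 11.63, and with RA 8.67, 8.65 and 9.82. The memory groups therefore lay below every co-culture array. The experiments differ in cell source, culture time, stimulus and mice, and these cannot be told apart. The summed linear value of the T cell markers was also lower in the memory experiment (9168 to 11143) than in the co-culture (19088 to 23800). Its part in the member values was not tested. Lef1, a factor of resting T cells, was also lower there, at 7.57 to 8.90 in the 6 memory experiment arrays and 9.12 to 9.78 in the co-culture. Its dim probe set 1421299_a_at was instead highest on the memory experiment arrays numbered 3 (6.41 without and 6.54 with RA). Klf2, the factor for recirculation, ranged from 6.86 to 8.49 in the co-culture and from 3.77 to 7.28 in the memory experiment, and there it was above the array median on only the arrays numbered 3 (7.28 without RA and 6.98 with it). In bulk samples such as these, fewer cells with a transcript and less of it per cell cannot be told apart.

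Myb ranged most within the co-culture. The Foxp3- sorts gave 5.62 and 6.19 with Sp-DC, 4.76 and 6.32 with LP-DC and 5.96 with Sp-DC plus RA. These lie within 0.40 of the array median, except the LP-DC array at 4.76, which is 1.16 below it. The Foxp3+ sorts gave 7.72 and 6.08 with Sp-DC, 7.31 and 8.0 with Sp-DC plus RA, and 9.04 and 9.02 with LP-DC. The LP-DC Foxp3+ arrays lay above all other co-culture arrays, and the Sp-DC Foxp3+ array numbered 2 fell among the Foxp3- arrays.

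Foxo1 was the steadiest member of the resting set, with every array between 10.83 and 11.40. Foxp1 ranged from 10.71 to 12.06 and Bach2 from 9.89 to 11.58. Bach2 was highest in LP-DC Foxp3+ cells (11.58 and 11.49) and lowest on the memory array numbered 1 without RA (9.89). Id3 was highest in LP-DC Foxp3- cells (7.94 and 7.86), and its Sp-DC arrays split by number, with 7.30 and 6.93 on the arrays numbered 1 and 5.57 and 5.49 on those numbered 2.

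RA in memory cells was the comparison with the most called members. With RA, Gfi1 was 8.34-fold higher, Id2 1.46-fold higher and Satb1 3.33-fold lower, the last 2 called by the paired fit alone. The Gfi1 fold starts from a mean without RA only 0.37 above the array median, so its size is less certain. By this fit 3 of 10 members were called, 2 higher and 1 lower, where 4.94% of all 12062 genes tested were called (2.6% higher and 2.34% lower). By the unpaired fit only Gfi1 was called, where 0.0829% of all genes were. The median difference over the 10 members was 0.37, against 0.00 over all genes tested.

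Gfi1 rose by 2.99, 2.92 and 3.27 within the arrays numbered 1, 2 and 3, and the groups did not overlap. The difference was 3.06 ± 0.20 by the unpaired fit (adjusted p = 0.00814) and ± 0.13 by the paired fit (adjusted p = 5.68e-06). The unpaired call was lost without the memory array numbered 1 (adjusted p = 0.0826) or 2 (0.144) or the array with RA numbered 1 (0.0873) or 2 (0.0844), while the difference stayed between 2.91 and 3.14. The paired call held in all 7 fits that left out arrays and all 9 other settings. With the block, leaving out either array of a number, or both, gives the same fit. These 7 fits therefore differ only in the number dropped and are not 7 separate checks. Gfi1 has 1 probe set, so no second one bears on this value.

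Satb1 fell by 1.45, 1.95 and 1.81 within the 3 numbers, and the groups did not overlap, with the array with RA numbered 3 (9.82) closest to the lowest array without (10.12). The difference was -1.73 ± 0.14 by the paired fit (adjusted p = 0.000204) and ± 0.49 by the unpaired fit (adjusted p = 0.579), where the spread between numbers counts against it. Of the 5 probe sets of Satb1, 4 were bright enough to be tested, and all 4 were lower with RA, by -1.78 to -1.08. When each probe set was tested on its own, 3 of them were called by the paired fit and 0 by the unpaired fit. The fifth, 1439315_at, was under the array median on 5 of the 6 arrays. The probe sets did not move together between numbers. Probe set 1416008_at was 1.28 higher on the memory array numbered 3 than on the mean of the others, while 1416007_at read 9.95 and 10.06 on arrays 1 and 2 and 9.52 on array 3 without RA, and 8.56, 8.58 and 7.67 with it.

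**Figure D2:**
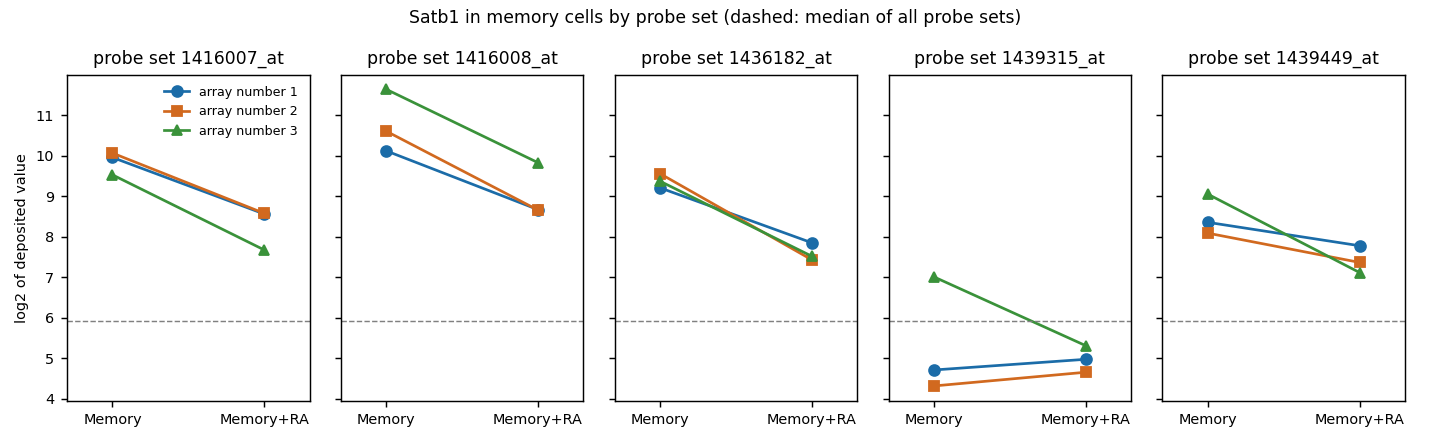
Level of each of the 5 Satb1 probe sets in memory cells without and with RA (vertical axis, log2 of the deposited value, lines join arrays of the same number). All 3 lines fall in 4 panels, and in the panel of 1439315_at the lines for numbers 1 and 2 stay under the array median.

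Id2, an inhibitor of E proteins, read 9.48, 9.30 and 10.99 without RA and 10.03, 9.79 and 11.60 with it. The groups overlap because both arrays numbered 3 are high, and within the numbers Id2 was higher with RA by 0.55, 0.48 and 0.61. The difference was 0.55 ± 0.13 by the paired fit (adjusted p = 0.0393), and not called by the unpaired fit (± 0.63, adjusted p = 1). All 3 Id2 probe sets were higher with RA (0.55 to 0.74). When tested on their own, 2 of them were called by the paired fit and 0 by the unpaired fit. Probe set 1422537_a_at did not overlap between groups (7.93 to 8.35 without and 8.80 to 9.01 with RA). The paired call of the first probe set was lost without each of the arrays numbered 1 or 3 (adjusted p up to 0.286), while the difference stayed between 0.52 and 0.58, and also when every probe set was tested on its own (0.0619). The related Id3 read 4.61, 5.22 and 5.73 without and 4.84, 6.09 and 6.06 with RA and was not called (0.48 ± 0.16, adjusted p = 0.146 paired). The E proteins themselves, Tcf3, Tcf4 and Tcf12, were all tested and 0 of 3 were called.

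The members known from resting cells were not called. Foxp1 came closest, at 11.11, 11.33 and 10.71 without and 11.98, 11.98 and 10.94 with RA (0.59 ± 0.15, adjusted p = 0.0649 paired and 1 unpaired). All 8 Foxp1 probe sets were higher with RA, by 0.15 to 0.78, and 1 was called on its own, by the paired fit alone. That one, 1421140_a_at, read 9.28, 9.69 and 9.74 without and 10.32, 10.30 and 10.39 with RA, with no overlap (0.77 ± 0.14, adjusted p = 0.0234 paired). Bach2 was higher by 0.54 ± 0.17 (adjusted p = 0.127 paired), and Foxo1 (0.02 ± 0.13), Lef1 (-0.16 ± 0.13), Klf2 (-0.14 ± 0.28) and Myb (0.27 ± 0.15) had paired adjusted p-values between 0.452 and 0.961.

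Related genes and partners were followed on lists. Of all genes tested 4.94% were called for RA in memory cells by the paired fit and 0.0829% by the unpaired fit. Of 12 tested relatives of the members, 1 was called by the paired fit, the repressor Klf3, which read 6.24, 7.37 and 8.57 without and 8.48, 8.88 and 10.15 with RA (1.78 ± 0.17, adjusted p = 0.000336). Of 13 tested partners 1 was called, the corepressor Tle1 (-0.77 ± 0.13, adjusted p = 0.00653). Of 12 tested naive and recirculation genes 3 rose (Klf3 again, which is on both lists, Sesn3 and the gut-homing receptor Ccr9, the last in both fits) and 2 fell (Ccr7, the lymph node homing receptor, by 0.58, and Nsg2). The median of this list was 0.25.

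Of 24 tested effector and differentiation factors, 6 were lower and 1 was higher by the paired fit, with a list median of -0.16. Of all genes tested 2.34% were called lower and 2.6% higher by this fit. By the unpaired fit Ccr9 alone of all these lists was called. Prdm1, the factor of terminal effector cells, read 9.42, 9.49 and 9.66 without and 8.80, 8.06 and 8.45 with RA (-1.08 ± 0.17, adjusted p = 0.00533). Tbx21 and Gata3, the lead factors of Th1 and Th2 cells, fell by 0.61 and 0.93, and Nfil3, Ahr and Bhlhe40 also fell. Runx1 rose by 1.08 ± 0.16. CD8 T and NK markers also differed, and their summed linear value was 561 to 869 without and 1032 to 1523 with RA. In that list Nkg7 (1.76 ± 0.16) and Klrd1 (0.87 ± 0.14) were called higher of 4 tested, while Cd8a, Cd8b1 and Ncr1 stayed under the array median. Of 9 T cell markers 1 was higher (Cd3e) and 1 lower (Cd2). Their part in the member values was not tested.

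In Foxp3+ cells of the Sp-DC culture, 0 of 10 members were called for RA by either fit, where 0.101% of 11846 genes were called by the unpaired and 1.12% by the paired fit. At an unadjusted p under 0.05 there was 1 member by the unpaired and 3 by the paired fit. The share of all genes at that threshold is not given here, so these counts are not read as a result. Gfi1 came closest. It read 8.66 and 9.11 without and 9.69 and 9.89 with RA, with no overlap and rises of 1.03 and 0.78 within the numbers (0.91 ± 0.22, adjusted p = 0.096 paired and 0.458 unpaired). In the Foxp3- cells, where only the arrays numbered 2 can be compared, Gfi1 was 10.13 with and 9.45 without RA. Satb1 read 12.40 and 12.43 without and 12.38 and 12.27 with RA, a difference of -0.09 ± 0.15 for this probe set. All 5 of its probe sets had the negative sign (-1.01 to 0.00) and none was called when tested on its own. The largest difference was that of the dim 1439315_at, which read 7.14 and 7.46 without and 6.21 and 6.36 with RA, with no overlap (-1.01 ± 0.24, adjusted p = 0.106 paired and 0.75 unpaired). Klf2 was 1.13 and 0.25 lower with RA within the numbers, with a paired adjusted p of 0.259. Id2 was 0.39 and 0.68 lower, with a paired adjusted p of 0.523, and all 3 of its probe sets had the negative sign. Of the lists, Ccr9 rose in both fits (5.29 ± 0.40 paired), and Prdm1, Maf and Eomes were the 3 of 24 effector and differentiation factors that fell by the paired fit. Eomes and Klrd1 (-1.43 ± 0.24) were also the 2 of 5 CD8 T and NK markers that fell, and their part in the member values was not tested.

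**Figure D3:**
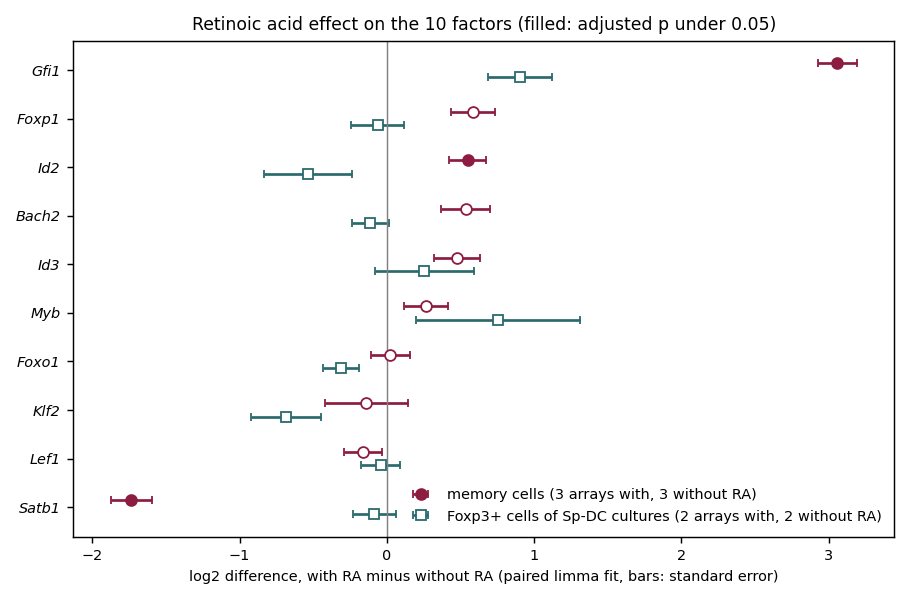
Difference with RA minus without RA for each factor (horizontal axis, log2, paired limma fit, bars for the standard error) in memory cells and in Foxp3+ cells of Sp-DC cultures, filled where the adjusted p is under 0.05. Gfi1 (3.06 and 0.91) and Satb1 (-1.73 and -0.09) are farthest apart between the cell populations.

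The RA effects of both experiments were set against each other in a fit over all 17 arrays. Gfi1 rose 2.15 more in memory cells than in Foxp3+ cells (± 0.31, adjusted p = 0.0266 unpaired, and ± 0.26, adjusted p = 0.00159 paired). The size of this value rests on memory arrays without RA whose Gfi1 signal lay near the array median. Satb1 fell by 1.65 more (± 0.20, adjusted p = 0.0016 paired, and ± 0.58, adjusted p = 1 unpaired). By the paired fit 2 of 10 members were called, 1 in each direction, where 1.41% of 11432 genes were called, and by the unpaired fit 1 of 10, where 0.0525% were. The unpaired call of Gfi1 was lost in 12 of 18 fits that left out arrays (adjusted p up to 0.246), and the paired calls of both genes held in all 18. With the block, fits without either memory array of a number are the same fit, so these are not 18 separate checks. Of the 4 Satb1 probe sets tested on their own in both experiments, all were negative and 3 were called by the paired fit (-1.77 to -0.91 over all 4). Not among them is 1439315_at, too dim in memory cells to be tested. Averaging the probe sets of Satb1 gave -1.0 and a paired adjusted p of 0.0742. Id2 was 1.08 ± 0.34 apart and was not called (adjusted p = 0.183 paired). In the same test Sesn3 (0.96 ± 0.20), Eomes (2.05 ± 0.32) and Ahr (-1.26 ± 0.26) were called by the paired fit among the listed genes, and 3 of 4 CD8 T and NK markers (Klrd1, Nkg7 and Eomes) were higher, whose part in the member values was not tested. Memory and Foxp3+ cells come from experiments that differ in stimulus, RA exposure time and TGFbeta dose, so population and culture cannot be told apart.

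Foxp3+ and Foxp3- cells of the same culture were compared next, as a mean over the 3 co-cultures. Myb was higher by 2.10 on the log2 scale and Bach2 by 0.34 (1.27-fold) in Foxp3+ cells by the paired fit. No fold is given for Myb, since its Foxp3- signal lies around or below the array median. These 2 of 10 members were called higher, and 0 lower, where 4.79% of all genes were called, 2.63% higher and 2.16% lower. By the unpaired fit 0 of 10 were called, where 0.92% of genes were. An unadjusted p under 0.05 was reached by 5 members, a count given without the share of all genes at that threshold.

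Myb was higher in the Foxp3+ array of 4 of 5 same-number pairs. The differences were 4.27 and 2.69 with LP-DC, 2.04 with Sp-DC plus RA and 2.11 with Sp-DC on the arrays numbered 1, and -0.12 with Sp-DC on those numbered 2. The mean was 2.10 ± 0.35 by the paired fit (adjusted p = 0.00801) and 2.06 ± 0.38 by the unpaired fit (adjusted p = 0.0584). The second probe set, 1421317_x_at, is of the cross-hybridizing kind that was passed over for the gene value. It gave 2.05 ± 0.30 when tested on its own. The paired call was lost without the Foxp3+ array of Sp-DC plus RA numbered 2 (adjusted p = 0.0544) or the Sp-DC Foxp3- array numbered 1 (0.0526). The remaining probe set, 1422734_a_at, was under the array median on all 11 co-culture arrays.

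With LP-DC alone, Myb was higher in Foxp3+ cells, with a log2 difference that rests on a Foxp3- mean 0.38 below the array median (3.48 ± 0.56, adjusted p = 0.00885 paired, and 0.0735 unpaired). It was the only member called, where 3.58% of genes were called by the paired fit (2.4% of genes called higher) and 0.135% by the unpaired fit. The cross-hybridizing probe set 1421317_x_at, whose Foxp3- arrays (6.03 and 7.40) lay above the array median, read 10.15 and 9.95 in Foxp3+ cells. Without the Foxp3- array numbered 1 (4.76) the difference was 2.65 and not called (adjusted p = 0.061). Without the Foxp3+ array numbered 1 the difference was 3.32 (adjusted p = 0.0639). With Sp-DC alone 0 of 10 members were called, where 0.557% of genes were by the paired fit and 0.0% by the unpaired fit (419 genes at an unadjusted p under 0.05), and Myb gave 1.00 ± 0.56 (adjusted p = 0.658 paired). The difference of the sort effect between LP-DC and Sp-DC was 2.49 ± 0.79 for Myb and was not called (adjusted p = 1 in both fits). In that test 0 of 11846 genes were called by either fit, or 0.0%, with 108 genes at an unadjusted p under 0.05 by the unpaired fit and 434 by the paired fit. A difference between the cultures in the sort effect on Myb is therefore not shown. In the LP-DC sort Batf, Ikzf2 and Ikzf4 rose and Maf and Ahr fell, 5 of 24 effector and differentiation factors, all by the paired fit, along with Tle4 (1 of 13 partners) and Actn1 (1 of 13 naive and recirculation genes), both lower. Of 5 CD8 T and NK markers tested 3 fell in this sort, Gzma (-4.08 ± 0.74), Klrd1 (-2.56 ± 0.24) and Cd8a (-1.26 ± 0.24), and the T cell marker Cd2 rose (1.23 ± 0.15). Their part in the Myb value was not tested.

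**Figure D4:**
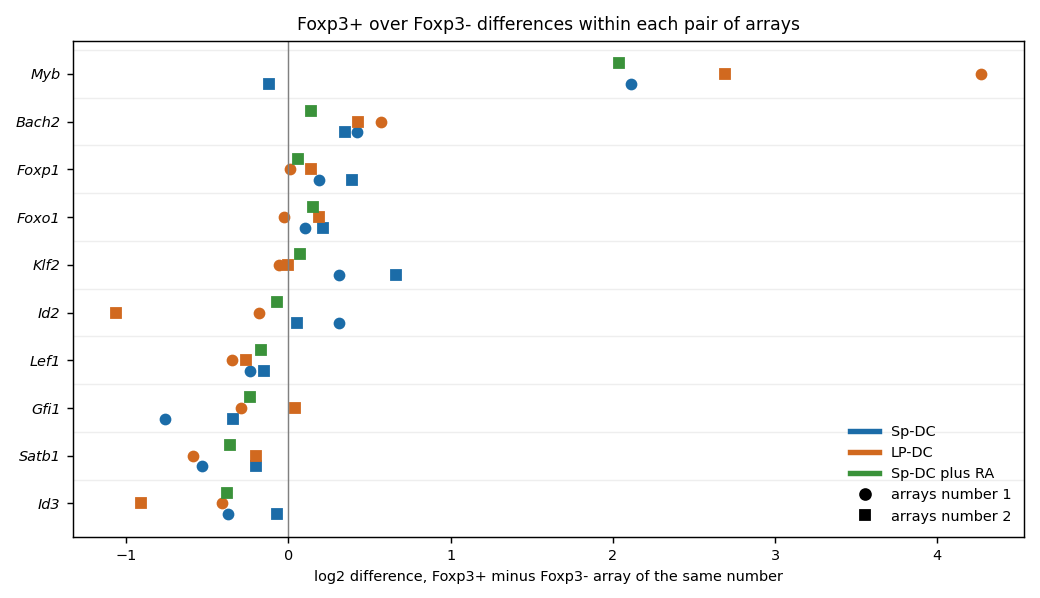
Foxp3+ minus Foxp3- difference within each pair of arrays of the same number (horizontal axis, log2) for the 10 factors, coloured by culture and shaped by array number. Bach2 lies between 0.14 and 0.57 and Satb1 below 0 in all 5 pairs, and Myb ranges from -0.12 to 4.27.

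Bach2 was higher in the Foxp3+ array of all 5 pairs, by 0.57 and 0.43 with LP-DC, 0.42 and 0.35 with Sp-DC and 0.14 with Sp-DC plus RA. The mean was 0.34 ± 0.08 (adjusted p = 0.0376 paired and 0.193 unpaired). All 3 probe sets were higher, 2 of them called on their own by the paired fit and 0 by the unpaired fit. The paired call was lost in every fit that left out 1 of the 10 arrays (adjusted p up to 0.149 there). Satb1 was lower in the Foxp3+ array of all 5 pairs but was not called (-0.36 ± 0.09, adjusted p = 0.0585 paired and 0.24 unpaired). All 5 of its probe sets were lower, and 2 were called on their own by the paired fit and 0 by the unpaired fit. Lef1 was lower by 0.25 ± 0.08 (adjusted p = 0.163 paired), and Foxo1, Foxp1, Klf2, Id2, Id3 and Gfi1 were not called, with paired differences between -0.48 and 0.13.

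Beside Bach2 and Myb, some listed genes passed in the mean sort comparison. Of all genes tested 4.79% were called there by the paired fit and 0.92% by the unpaired fit. Ikzf4, known from regulatory T cells, rose in both fits (0.77 ± 0.11, adjusted p = 0.00309 paired and 0.0279 unpaired). Ahr (-0.93 ± 0.12) and Tbx21 (-1.07 ± 0.20) fell by the paired fit, so that 1 of 24 effector and differentiation factors was higher and 2 were lower. Among 13 partners the corepressor Tle4 fell (-0.63 ± 0.08, adjusted p = 0.00243), and 0 of 3 E proteins, 0 of 11 relatives and 0 of 13 naive and recirculation genes were called. CD8 T and NK markers moved with the sort. Their summed linear value was 5479 to 7093 in LP-DC Foxp3- and 2246 to 2454 in LP-DC Foxp3+ cells, 8136 to 8138 and 4727 to 5818 with Sp-DC, and 5721 and 2530 to 2914 with Sp-DC plus RA. Klrd1 and Gzma fell in both fits, 2 of 5 tested, and the T cell marker Cd2 rose by the paired fit, while Cd8b1 and Ncr1 were under the array median in all groups. Their part in the Myb and Bach2 values was not tested.

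LP-DC were compared with Sp-DC within each sort. In Foxp3+ cells Id2 was 3.15-fold lower with LP-DC by the paired fit, 1 of 10 members called, where 0.642% of genes were called lower and 1.81% in either direction. By the unpaired fit 0 members and 0.0% of genes were called, with 947 genes at an unadjusted p under 0.05. Id2 read 9.09 and 9.07 with LP-DC and 10.08 and 11.40 with Sp-DC, with no overlap but far more spread with Sp-DC. The difference was -1.66 ± 0.30 (adjusted p = 0.0377 paired and 0.529 unpaired), and -0.99 and -2.32 within the numbers. All 3 probe sets were lower, by -1.66 to -1.43, and 1 was called on its own, by the paired fit alone. The call was lost without each of 6 arrays left out singly, with adjusted p-values up to 0.397 without the Sp-DC Foxp3+ array numbered 2 and 0.332 without the LP-DC Foxp3+ array numbered 2. Myb was higher by 2.12 ± 0.56 and not called (adjusted p = 0.0784 paired). Id3 was higher by 1.03 ± 0.34 (adjusted p = 0.135 paired). Among CD8 T and NK markers Nkg7 was lower with LP-DC (-1.70 ± 0.23, 1 of 5 tested), and its part in the Id2 value was not tested.

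In Foxp3- cells 0 of 10 members were called for LP-DC over Sp-DC. Of all genes 0.861% were called by the paired fit and 0.0% by the unpaired fit (794 genes at an unadjusted p under 0.05). Id3 came closest, at 7.94 and 7.86 with LP-DC and 7.30 and 5.57 with Sp-DC (1.47 ± 0.34, adjusted p = 0.0688 paired and 0.716 unpaired). Id2 had the opposite sign (-0.86 ± 0.30, adjusted p = 0.187 paired), within the numbers -0.51 and -1.21. Klf2 (0.64 ± 0.24), Foxp1 (0.57 ± 0.18) and Lef1 (0.32 ± 0.13) were higher in both numbers and not called. The naive and recirculation list had a median of 0.66, against 0.00 over all genes, with 1 of 13 called. The one called was Il7r, the IL-7 receptor, which read 12.93 and 13.40 with LP-DC and 11.84 and 12.40 with Sp-DC (1.04 ± 0.13, adjusted p = 0.0258 paired). Il7r was also called in the Foxp3+ cells (1.03 ± 0.13, adjusted p = 0.0211). There Irf4 rose and Prdm1, Maf and Nfil3 fell by the paired fit. Thus 4 of 24 effector and differentiation factors were called in Foxp3+ cells, where 1.81% of all genes were. In the Foxp3- cells the antigen-presentation gene H2-Ab1 was lower with LP-DC, 1 of 5 dendritic and myeloid markers tested.

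LP-DC were last compared with Sp-DC plus RA, in Foxp3+ cells. Gfi1 was 2.06-fold lower with LP-DC and was the only member called by the paired fit, where 0.76% of genes were called lower and 1.87% in either direction. By the unpaired fit 0 of 10 members were called, where 0.0929% of genes were. Gfi1 read 8.88 and 8.63 with LP-DC and 9.69 and 9.89 with Sp-DC plus RA, with no overlap (-1.04 ± 0.22, adjusted p = 0.0455 paired and 0.276 unpaired). The call was lost without each of 6 arrays left out singly (adjusted p up to 0.421), with the difference between -1.18 and -0.90 in all fits that left out 1 array. The comparisons of LP-DC with Sp-DC plus RA and of RA in Foxp3+ cells share the same arrays with RA. Here 3 of 24 effector and differentiation factors were higher (Batf, Eomes and Ikzf2) and 1 lower (Irf8). Of 13 naive and recirculation genes 2 were higher (S1pr1 and Btla) and 1 lower (Ccr9, -5.44 ± 0.40, in both fits). S1pr1, the receptor for leaving lymph nodes that Klf2 is known to drive, was higher by 0.93 ± 0.17 (adjusted p = 0.0286 paired), and Klf2 itself by 0.81 ± 0.24 without being called (adjusted p = 0.14 paired). The CD8 marker Cd8a was lower and Eomes higher, 2 of 5 tested, and their part in the Gfi1 value was not tested.

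Several members moved with the array number on the probe set followed for each. In the memory experiment the arrays numbered 3 exceeded the mean of numbers 1 and 2 by 2.43 without and 2.18 with RA for Klf2, by 2.15 and 2.61 for Myb, by 1.60 and 1.69 for Id2, by 1.28 and 1.16 for Satb1, and by 0.94 and 1.08 for Lef1. Foxp1 was lower there, by -0.51 and -1.04, and Gfi1 moved least among the called members, by 0.12 and 0.44. In the co-culture Id2 was higher on the second array than on the first in 4 of 5 groups with both (0.86 to 1.57, and -0.02 in LP-DC Foxp3+ cells), and Klf2, Id3 and Foxp1 were lower on it in all 5. What the numbers stand for is not given in the sources used here.

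Across the 17 arrays, after each experiment's mean was removed, Lef1 and Klf2 were the most alike pair of members (Pearson r = 0.86), followed by Lef1 and Satb1 (0.68). Id2 ran opposite to Foxp1 (-0.73) and Gfi1 opposite to Satb1 (-0.70). The points share arrays, numbers and treatments, and the values describe these arrays only. Among all 11431 other genes the patterns most like Gfi1 were those of Ssbp2 (r = 0.93), Smpdl3a (0.92) and Hic1 (0.90), and most like Satb1 those of AI504432 (0.94), Prxl2c (0.92) and Cited2 (0.90). Myb was most like Vav2 (0.92), Dusp4 (0.91) and Tent5a (0.89), Bach2 like Gimap8 (0.90), Pros1 and Rabgap1l, and Id2 like Dym (0.93), Snhg6 and Nudt2. Lef1 was most like Wdr37 (0.94), Mosmo and Rras2, Klf2 like Rbm6 (0.92), Arpp19 and Dop1a, and Id3 like Zdhhc3 (0.86), Ovca2 and Gid8. Foxo1 was most like Ostm1 (0.89), Dip2b and Smad1, and Foxp1 like Ints8 (0.91), Tmcc1 and Slc9a3r1.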

How the data were processed

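The deposited table holds linear intensity values of 45101 probe sets on 17 arrays, made by the authors with robust multi-array averaging (RMA), per the submitters' processing notes. The sources used here do not say which version was used or if RMA was run on the 17 arrays at once. Values lie between 4.06 and 27165, with medians per array of 59.0 to 63.2. The number of arrays limits the precision. By the platform's annotation, 34958 probe sets carry 1 gene symbol, and only these were used. Another 932 carry several symbols and 9211 carry no symbol.

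The log2 was taken with no pseudocount. A gene's value is that of its brightest probe set by mean log2, where cross-hybridizing ones (_x_at) count only if a gene has no other. Genes exceeding the array's median on 2 or more arrays of an experiment were tested. With limma 3.58.1 (R 4.3.3), a coefficient per group was fitted over 11 co-culture arrays (11846 genes), 6 memory arrays (12062) or all 17 (11432), with empirical Bayes moderation and p-values adjusted by Benjamini-Hochberg across every gene tested. The paired fit has the array number as a further term. After removal of group means, same-number arrays correlated at 0.45 to 0.75 over co-culture group pairs and 0.65 to 0.94 for the 3 memory numbers, which is where the pairing comes from. The scripts were tested on simulated data.

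The members and the gene lists were chosen with earlier results of these data known. By rule, all members are named, with up to 4 genes that passed per list and comparison, by size, and the 3 genes most like each member by Pearson r. Ccr7, Gata3, Tbx21 and Bhlhe40 for RA in memory cells, Ikzf2 in the LP-DC sort and Foxp3 fall outside this rule and were chosen after their values were seen. The alternatives changed the normalization (quantile, or each array centred on its median), the filter (absent, or set at percentile 60), the log scale (32 added first), the probe set rule (averaged, or each on its own), the variance model (trended), the arrays fitted (all 17 in 1 fit, or each left out in turn) and the block. Chosen after seeing the data were the block combined with each of these, and leaving out both memory arrays numbered 3.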

Additional observations from a re-analysis of the deposited data

Results flagged for a closer look

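The RA effect on 2 members differed between memory cells and Foxp3+ cells by a direct test of the difference (limma over all 17 arrays). The experiments also differ in stimulus, RA exposure time and TGFbeta dose, so population and culture cannot be told apart. For Gfi1 the effect in memory cells exceeded that in Foxp3+ cells by 2.15 (adjusted p = 0.0266 unpaired and 0.00159 paired), with Gfi1 higher with RA in 3 of 3 same-number pairs of memory and 2 of 2 of Foxp3+ arrays. Its signal in memory cells without RA lay near the array median. For Satb1 the difference of effects was -1.65 (adjusted p = 0.0016 paired and 1 unpaired), with Satb1 lower in 3 of 3 memory pairs, by 1.45 to 1.95, and in the Foxp3+ pairs by 0.01 and 0.16, all on its brightest probe set. The paired call of Satb1 was lost when its probe sets were averaged. In Foxp3+ cells the 5 Satb1 probe sets ranged from -1.01 to 0.00, none called, and the one at -1.01 was not tested in memory cells. CD8 T and NK markers Nkg7 (2.89) and Klrd1 (2.29) also differed in this test by the paired fit, and their part in the member values was not tested.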

How the results depend on the processing

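The array number as a replicate block changed the number of members called from 1 to 3 for RA in memory cells, from 0 to 2 for the mean sort effect, from 0 to 1 for the LP-DC sort and for LP-DC over Sp-DC and over Sp-DC plus RA in Foxp3+ cells, and from 1 to 2 for the RA effect in memory minus Foxp3+ cells. It changed no other count.

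Of member counts without the block, the mean of all probe sets gave 1 for the mean and LP-DC sort effects. Median-centring, adding 32 and every probe set on its own gave 0 for the difference of RA effects. Leaving out both memory arrays numbered 3 gave 2 for RA in memory cells and 2 for the difference of RA effects. Leaving out 1 array gave 0 to 1 for those and for the mean sort effect. With the block, 1 fit over all arrays gave 1 for RA in Foxp3+ cells, the mean sort effect and LP-DC over Sp-DC in Foxp3- cells, and 2 for LP-DC over Sp-DC and over Sp-DC plus RA in Foxp3+ cells. Adding 32 gave 2 for the LP-DC sort and 0 for LP-DC over Sp-DC plus RA. The mean of probe sets gave 0 for LP-DC over Sp-DC and over Sp-DC plus RA in Foxp3+ cells and 1 for the difference of RA effects, and every probe set on its own gave 0 for LP-DC over Sp-DC plus RA. Leaving out 1 array with the block gave 2 to 5 members for RA in memory cells (5 without array 2 of either group), 2 to 3 for the difference of RA effects and 0 to 2 elsewhere. Over all genes these fits gave 208 to 819 calls for RA in memory cells (596 with all arrays) and 70 to 169 for the difference of RA effects (161). The member counts in this paragraph stand without the share of all genes under each setting, so they are not results about the members alone.

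Signs reversed only among members that were not called, apart from Id2. With the mean of probe sets, Lef1 for RA in memory cells became 0.02, Foxp1 in the LP-DC sort 0.00, Bach2 in the difference of sort effects -0.03 and Lef1 in the difference of RA effects 0.27. Without both memory arrays numbered 3, Foxo1 for RA in memory cells became -0.01. With 1 array left out and no block, differences spanned, for RA in memory cells, -0.60 to 0.98 (Myb), -0.04 to 0.12 (Foxo1), -0.52 to 0.15 (Lef1), -0.87 to 0.73 (Klf2) and -0.02 to 1.08 (Id2). For RA in Foxp3+ cells they spanned -0.39 to 0.26 (Foxp1), -0.14 to 0.06 (Lef1), -0.07 to 1.58 (Myb), -1.19 to 0.12 (Id2) and -0.46 to 0.97 (Id3). In the mean sort effect Klf2 spanned -0.03 to 0.40. In the LP-DC sort they spanned -0.38 to 0.32 (Klf2), -0.41 to 0.17 (Gfi1), -0.01 to 0.17 (Foxo1) and -0.04 to 0.19 (Foxp1), and in the Sp-DC sort -0.60 to 0.96 (Id2), -1.08 to 0.64 (Id3), -0.15 to 1.13 (Klf2) and -0.13 to 0.72 (Foxp1). For LP-DC over Sp-DC they spanned -0.34 to 0.59 (Klf2) and -0.36 to 0.09 (Gfi1) in Foxp3+ cells, and -1.14 to 0.42 (Myb) and 0.00 to 1.28 (Klf2) in Foxp3- cells. In the difference of sort effects they spanned -0.18 to 0.12 (Satb1), -0.18 to 0.03 (Foxo1), -0.26 to 0.04 (Lef1), -1.16 to 0.13 (Klf2), -1.30 to 0.43 (Id3) and -0.64 to 0.21 (Foxp1), and in the difference of RA effects -0.50 to 0.94 (Id3), -1.36 to 0.34 (Myb), -0.48 to 0.20 (Lef1) and -0.18 to 1.42 (Klf2). The cause was not tested.

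Of the values of single members under an alternative, 2173 kept direction and side of the threshold, 60 reversed, 59 were no longer called and 14 became called. Most of the 2173 were not called to begin with and stayed so, while the 59 come from the few called values. With the block, some fits that left out arrays are the same fit and are counted more than once. Over all genes, other settings gave 7 to 56 calls for RA in memory cells against 10 without the block, and 552 to 752 against 596 with it. For LP-DC over Sp-DC with the block they gave 36 to 418 in Foxp3+ cells, against 215, and 15 to 292 in Foxp3- cells, against 102. Leaving out 1 array gave 0 to 7 without and 208 to 819 with the block for RA in memory cells, 2 to 451 in Foxp3+ and 0 to 238 in Foxp3- cells for LP-DC over Sp-DC with the block, and, for the mean sort effect, 3 to 99 against 109 without the block and 329 to 594 against 568 with it. The shares of all genes called rest on these counts. With 1 to 3 arrays a group, a lone array left in a group is assumed to vary like the others. Signal near the array median limits Klf2 and Id3 in memory cells, Gfi1 in memory cells without RA and Myb in Foxp3- cells.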
